A study of Mus musculus with 4 samples.

Results

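The genes described here encode the subunits of voltage-gated sodium, calcium and potassium channels, of the other potassium channels and of the hyperpolarization-activated channels in single-cell RNA sequencing of the developing arcuate nucleus (ARC) of the mouse hypothalamus. They were taken by symbol alone, as all rows that begin with Scn, Cacna, Cacnb, Cacng, Kcn or Hcn in the form of a channel subunit name, with Kcnq1ot1 left out. The rule found 141 of the 27998 rows of the count table, 137 of them protein-coding and 4 annotated as opposite-strand RNAs of a potassium channel gene (Kcnd3os, Kcnab3os, Kcnmb4os1 and Kcnmb4os2). The rule uses no measured value, though it was set with earlier results of these data known. In the cells kept, 128 of the 141 had at least 1 unique molecular identifier (UMI, the tag that marks 1 captured RNA molecule), 117 were found in more than 3 cells, and all of them together held 34947 UMIs. The 13 rows with no UMI were Kcnk15, Cacna1f, Kcna10, Kcnj11, Kcnk16, Kcnj1, Scn4b, Scn4a, Kcnk9, Kcne2, Kcng3, Kcnk4 and Kcnk18, which allows a level of up to 0.123 UMIs per 1000000 UMIs (CPM) for each over all kept cells.

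The cells came from ARCs of E15 embryos of the C57BL/6 strain that carried Pomc-eGfp, a transgene in which Pomc regulatory sequence drives green fluorescent protein and which guided the dissection. The embryos were pooled into 1 library, and the 4 deposited samples are repeated sequencing runs of it, named E15_5 in their titles. There is therefore no replicate, every interval given here covers counting error only, and no test between conditions was possible. All groups below are sets of cells of that library, set by the UMIs of marker genes.

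Voltage-gated channels open when the membrane is depolarized. Sodium channels carry the upstroke of the action potential, potassium channels return the membrane to rest and set the firing pattern, and calcium channels couple electrical activity to transmitter release and gene expression. Pore-forming alpha subunits decide which ion passes, while auxiliary subunits (beta for sodium channels, beta, alpha2delta and gamma for calcium channels, Kcnab, Kcnip, Kcne and Kcnmb for potassium channels) set traffic to the membrane and gating. Inward rectifiers (Kcnj) and 2-pore-domain channels (Kcnk) hold the resting potential and are also used by glia, progenitors and vessel walls.

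The 6465 barcodes held 26277265 UMIs. The 6351 cells kept had a median of 3338 UMIs, between 1748 and 16836. Neurons were the 4006 cells with at least 2 UMIs of Stmn2, a tubulin-binding protein of growing neurons, and progenitors were the 847 cells with at least 1 Sox2 UMI and at most 1 Stmn2 UMI. Their median depths were 3408.5 and 3422 UMIs. The 7 neuronal markers (Tubb3, Map2, Dcx, Elavl3, Snap25, Syt1, Gap43) summed to 5423 CPM in neurons and 675 CPM in progenitors, and the 8 progenitor markers (Hes1, Hes5, Vim, Nes, Fabp7, Slc1a3, Rax, Mki67) to 359 and 3169 CPM. The progenitors were mixed: 218 of the 847 (25.7%) had a UMI of Pitx1, Pou1f1, Cga, Tshb, Col3a1, Cldn5 or Aif1, genes of pituitary, connective tissue, vessel or macrophage cells, against 8.16% of neurons. The 168 progenitors with a Pitx1 UMI, a pituitary transcription factor gene, had a median of 6033 UMIs and held 30.6% of all progenitor UMIs. The 7 pituitary markers summed to 500 CPM in progenitors and 82.5 CPM in neurons, with none of them at 0 in either group. The counts against progenitors are therefore also given without such cells.

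Promoter sequence from RefSeq (GRCm38.p6), the 250 bases before the annotated start, could be matched by symbol for 102 of the 141 genes. Among the genes without an entry were Scn3a, Scn3b, Kcnq3, Kcna1, Kcnk3, Hcn3, Cacna1a and Cacng4. The matched promoters were rich in the CG dinucleotide, the target of DNA methylation: the median was 12 CG per promoter and 62% G or C, against 6 CG and 52.8% over the 27025 genes in the promoter table. The 32 matched genes that were higher in neurons had a median of 16 CG, and the 20 that were lower or between had 15.5. For these comparisons, a gene with several promoter entries was given its highest value. TATAAA, on either strand, was present in 5 of the 102 (4.9%) and in 14.3% of all genes. GGGCGGGG, a GC box, was present in 28 (27.5%) against 18%, and CAGCACC, the left part of the element bound by the repressor Rest, in 7 (6.86%) against 6.56%. Of the 32 genes higher in neurons, 1 held TATAAA (Scn2a1), 6 held GGGCGGGG (18.8%) and 0 held CAGCACC, and of the 20 lower or between, 1 held TATAAA, 8 held GGGCGGGG (40%) and 2 held CAGCACC (10%).

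The promoters of 4 genes are shown because the results below turn on these genes. Cacng2 had the highest ratio of neurons to progenitors. Kcne1l had the lowest ratio of neurons to progenitors among the measured genes once cells of other lineages were left out. Among the neuron groups defined below, Kcnk12 had its highest level in the Pomc neurons, and Kcnj8 marked the vascular cells. Capitals mark every CG. Each is written on the minus strand, as the genes are, 5′ to 3′ and ending at the base before the RefSeq start. For Cacng2 and Kcne1l that start lies inside the gene range given below, which is from GENCODE, so part or all of the printed stretch falls within that range.
Cacng2, chr15:78119281-78119530: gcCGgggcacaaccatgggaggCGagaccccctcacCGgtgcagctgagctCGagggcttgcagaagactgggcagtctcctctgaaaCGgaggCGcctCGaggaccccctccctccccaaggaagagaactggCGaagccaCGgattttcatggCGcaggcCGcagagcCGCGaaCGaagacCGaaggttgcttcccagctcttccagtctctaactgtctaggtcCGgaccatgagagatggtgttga
Kcne1l, chrX:142306199-142306448: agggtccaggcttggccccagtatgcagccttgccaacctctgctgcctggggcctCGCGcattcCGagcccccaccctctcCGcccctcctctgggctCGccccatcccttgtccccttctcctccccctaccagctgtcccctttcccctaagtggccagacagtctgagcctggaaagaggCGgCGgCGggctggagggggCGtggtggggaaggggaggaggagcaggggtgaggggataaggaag
Kcnk12, chr17:87797995-87798244: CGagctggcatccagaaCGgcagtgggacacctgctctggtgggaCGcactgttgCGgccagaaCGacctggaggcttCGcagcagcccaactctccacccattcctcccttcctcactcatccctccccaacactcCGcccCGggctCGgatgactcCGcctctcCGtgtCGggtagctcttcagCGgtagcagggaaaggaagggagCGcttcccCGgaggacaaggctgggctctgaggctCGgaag
Kcnj8, chr6:142571615-142571864: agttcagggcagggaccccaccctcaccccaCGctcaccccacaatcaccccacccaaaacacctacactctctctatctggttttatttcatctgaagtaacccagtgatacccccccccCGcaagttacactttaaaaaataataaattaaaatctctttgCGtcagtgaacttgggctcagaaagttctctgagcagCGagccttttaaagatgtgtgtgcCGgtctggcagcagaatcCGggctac
The Cacng2 and Kcnk12 promoters each hold 16 CG, the Kcne1l promoter 9 and the Kcnj8 promoter 6. None of the 4 holds any of the 3 motifs searched.

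The first comparison asked which channel genes distinguish young neurons from progenitors. As a group they were higher in neurons: the 141 genes together reached 1721 CPM (95% Poisson interval, 1700 to 1742) in neurons and 873 CPM (843 to 904) in progenitors, a ratio of 1.97 (exact interval, 1.90 to 2.05). Ratios below are followed by the same 95% interval. Sodium channel subunits, calcium channel alpha1 and beta subunits and the Kcnq family stood out, and the inward rectifiers, Kcnh, 2-pore-domain and calcium- or sodium-activated potassium channels did not differ or were slightly lower as classes. Of the 441 progenitor UMIs of the calcium- or sodium-activated class, 160 were of Kcnmb2, most of them in the progenitors with Pitx1. Class sums without cells of other lineages are not given. A gene was counted as measured when at least 10 UMIs would be expected in the smaller cell group at equal CPM, and as higher or lower when its ratio of pooled CPM was at least 2 or at most 1/2. Neurons held most of the UMIs, so that a gene passed this filter more readily through its level in neurons, channel gene or not. Of 69 measured genes, 43 were higher in neurons, 4 were lower and 22 lay between. Over all 11697 measured genes, 13.3% were higher and 17.4% lower by the same rule, and the median log2 ratio was 1.34 for the channel genes and −0.11 for all genes. The interval excluded 1 for all 43 higher and all 4 lower genes. The share of ribosomal protein UMIs, which lowers every other CPM, was 14.99% in neurons and 22.0% in progenitors. With ribosomal protein, mitochondrial and haemoglobin genes taken out of the totals, the summed ratio was 1.81 and 40 genes were higher.

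**Figure D1:**
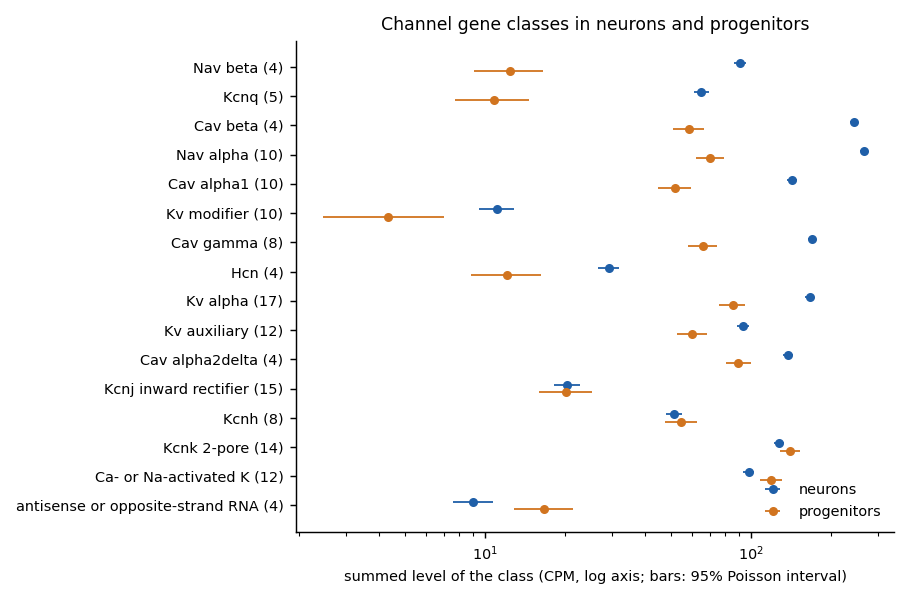
Summed level of each class of channel genes (CPM, logarithmic axis) in neurons (blue) and progenitors (orange), ordered by their ratio, with the number of rows per class in brackets and 95% Poisson intervals as bars. The sodium beta, Kcnq, calcium beta and sodium alpha classes have the widest gaps, with ratios from 7.31 to 3.78, and the inward rectifier points coincide at 20.3 CPM.

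Counts per cell gave the same direction. With each cell thinned to 2167 UMIs, 3726 neurons had a median of 3 channel genes with a UMI (10th to 90th percentile, 1 to 6) and 717 progenitors had 1 (0 to 4). Without thinning the medians were 5 and 2. No channel gene was seen in 131 thinned neurons (3.52%) and in 143 thinned progenitors (19.9%). Thinned cells of the mesenchymal gate (defined below) had a median of 1, and 32.6% of them had none.

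Among sodium channel alpha subunits, 4 of 5 measured genes were higher in neurons and none was lower. Scn3a, the main embryonic and neonatal brain sodium channel (chr2:65457118-65567627), had 128.7 CPM in neurons and 20.3 CPM in progenitors, a ratio of 6.36 (5.05 to 8.11), and was seen in 24.8% of thinned neurons, 4.46% of thinned progenitors and 3.26% of thinned mesenchymal cells. Scn2a1, now named Scn2a and used at the axon initial segment early in life, reached 46.7 against 5.13 CPM, a ratio of 9.09 (5.78 to 15.2). Scn9a, best known from sensory and hypothalamic neurons, had 62.2 against 18.1 CPM (3.44, 2.68 to 4.47). Scn1a, the channel of fast-spiking inhibitory neurons that appears later, had 5.82 against 1.35 CPM (4.31, 1.78 to 13.6). These genes lie in 1 cluster on chromosome 2 and are close relatives, and by the study's methods only reads mapped with confidence to 1 place were counted, so reads that fit several of them equally well are not in these values. Scn8a, the sodium channel of mature nodes and initial segments, was alike in both groups, at 20.5 and 19.99 CPM (1.03, 0.79 to 1.34).

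Sodium beta subunits, which anchor and tune the alpha subunits, had the widest gap of any class: 90.8 CPM in neurons and 12.4 CPM in progenitors, a ratio of 7.31 (5.45 to 10.0). Most of it was Scn3b, at 74.1 and 5.94 CPM, with a ratio of 12.5 (8.20 to 19.98). Scn2b had 13.9 and 6.21 CPM (2.24, 1.45 to 3.61). Its level of 24.4 CPM in the vascular gate and 14.97 CPM in the pituitary gate was no lower than in neurons, whereas Scn3b stood at 0 and 8.02 CPM there.

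All 4 calcium channel beta subunits, which bring the alpha1 subunit to the membrane, were higher in neurons. Cacnb3 (chr15:98630840-98644529) had 184.1 CPM in neurons and 42.1 CPM in progenitors (4.37, 3.72 to 5.17). The ratio was 4.69 (3.03 to 7.66) for Cacnb1, 3.35 (2.15 to 5.50) for Cacnb4 and 2.80 (1.73 to 4.81) for Cacnb2. Cacnb3 held the most UMIs of the 141 genes, and without it the summed levels were 1537 CPM in neurons and 831 CPM in progenitors.

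Of 8 measured pore-forming calcium channel genes, 5 were higher in neurons and 3 were between, with L-type and T-type genes on both sides. Cacna1b and Cacna1e, the N-type and R-type channels of nerve terminals and dendrites, were higher in neurons: 40.3 against 8.64 CPM (4.66, 3.27 to 6.87) and 39.6 against 2.70 CPM (14.7, 7.92 to 30.7). Cacna1i, a low-threshold T-type channel, had 83 UMIs in neurons and 1 in progenitors, a ratio of 19.9 whose interval ran from 3.47 to 795. Cacna1c, the L-type channel shared with muscle, and Cacna1h, another T-type channel, were higher too, with ratios of 3.80 and 2.35. The P/Q-type gene Cacna1a (1.37, 1.02 to 1.87), the L-type gene Cacna1d (1.20, 0.75 to 1.99) and the T-type gene Cacna1g (0.75, 0.53 to 1.07) were within 2-fold.

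Of the alpha2delta subunits, Cacna2d2 and Cacna2d3 were higher in neurons, with ratios of 2.43 (1.86 to 3.24) and 6.87 (2.27 to 34.0). Cacna2d1, the gabapentin-binding subunit, was within 2-fold at 93.3 and 70.5 CPM, but 171 of its 261 progenitor UMIs came from the cells with Pitx1. In the progenitors with Nkx2-1, a transcription factor gene of the ventral hypothalamus, it had 30.3 CPM, and the ratio of neurons to them was 3.08 (2.19 to 4.46).

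The gamma class held the gene with the highest ratio of all. Cacng2, or stargazin, which escorts AMPA-type glutamate receptors to the synapse (chr15:77991748-78120028), had 603 UMIs in neurons and 1 in progenitors, at 39.0 and 0.27 CPM. With a single progenitor UMI the ratio of 144.5 has an interval from 25.8 to 5717. It was seen in 12.6% of neurons, 0.118% of progenitors and in none of the vascular or mesenchymal cells. Cacng3, of the same receptor-binding group, had 80 UMIs against 1 (19.2, 3.34 to 767). Cacng8 and Cacng4, also of that group, each had a ratio of 2.48, while Cacng7 did not differ (0.94, 0.73 to 1.21).

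Among the Kv alpha subunits, 6 of 11 measured genes were higher, 1 was lower and 4 were between. Kcnc1, a fast delayed rectifier that permits rapid firing, had 41.5 against 7.29 CPM (5.70, 3.88 to 8.71). Kcna2, a low-threshold axonal channel, had a ratio of 8.15 (2.71 to 40.2), and Kcnd2, the A-type channel of dendrites, 3.75 (2.59 to 5.62). Kcnc4, Kcnb2 and Kcna6 had ratios of 12.7, 3.24 and 3.70, with a single progenitor UMI behind Kcnc4, whose interval ran from 2.18 to 511. The modifier subunit Kcng4, which is silent alone and changes Kcnb channels, had 68 UMIs in neurons and 0 in progenitors, so that it was at least 5.43-fold higher when 3 UMIs are allowed for the progenitors.

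Kcnq3, a subunit of the slow M-current that holds back repeated firing, was higher in neurons, at 10.0 and 4.86 CPM (2.06, 1.26 to 3.57). The auxiliary Kcnip1 and Kcnip2, which bind Kcnd channels, had ratios of 8.53 (5.59 to 13.7) and 6.07 (2.73 to 16.8). Of the ether-a-go-go genes, Kcnh4 was higher (7.62, 3.20 to 23.8), while Kcnh2, Kcnh7 and Kcnh8 were between 0.74 and 0.86.

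Outside the voltage-gated classes the picture was mixed. Kcnj3, a subunit of the G-protein-gated inward rectifier that neuropeptides and opioids open, was the only measured Kcnj gene and was higher in neurons (7.25, 2.76 to 27.0), but the 15 Kcnj rows summed to 20.3 CPM in both groups (1.003, 0.78 to 1.31). Kcnma1, the large-conductance calcium-activated channel (chr14:23289431-24014491), had 26.5 against 2.70 CPM (9.82, 5.29 to 20.6). Both measured Kcnmb genes, which encode its beta subunits, had the lower level in neurons, with Kcnmb4 at 30.5 and 56.7 CPM and Kcnmb2 at 12.7 and 43.2 CPM, though for Kcnmb2 this did not hold without cells of other lineages (1.75, 0.97 to 3.47). Kcnk12, Kcnk3 and Kcnk10 were higher in neurons (7.60, 2.85 and 2.85), whereas Kcnk2, a stretch- and lipid-sensitive leak channel, had 91.9 and 118.3 CPM (0.777, 0.697 to 0.867). Hcn3, of the hyperpolarization-activated channels, was higher (3.22, 2.18 to 4.96).

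**Figure D2:**
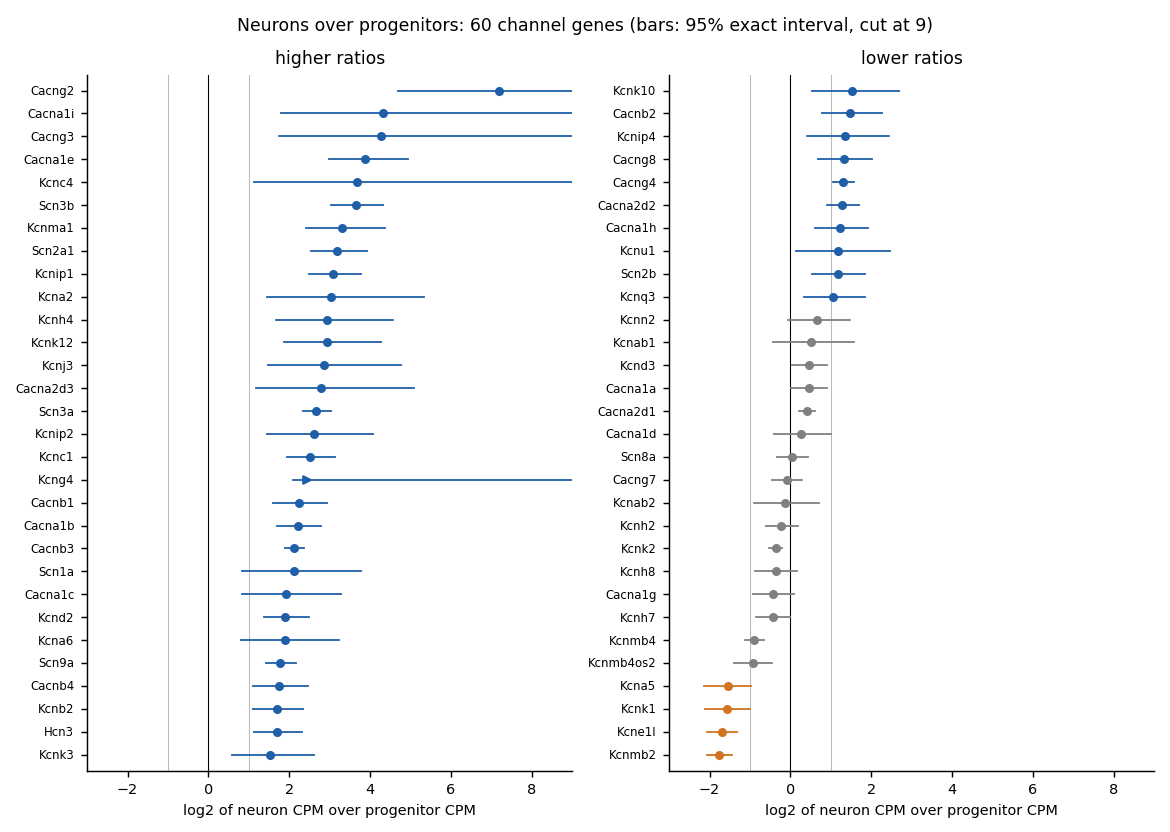
Log2 ratio of neuron to progenitor CPM for 60 of the 69 measured channel genes, with 95% exact intervals as bars (drawn up to 9). Blue marks at least 2-fold higher, orange at least 2-fold lower and grey between, the vertical lines stand at 2-fold lower, equal and 2-fold higher, and the triangle (Kcng4) marks a lower bound of 5.43. The 40 blue genes run from Cacng2 down to Kcnq3, and the 4 orange genes are Kcna5, Kcnk1, Kcne1l and Kcnmb2.

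The 4 genes lower in neurons came from different progenitors. Leaving out neurons and progenitors with a UMI of the other lineages kept 3679 neurons and 629 progenitors, in which 61 channel genes could be measured: 40 were higher in neurons and 5 lower, against 14.9% and 14% of all measured genes. The summed ratio was 1.996 (1.91 to 2.09). With the 290 progenitors that had an Nkx2-1 UMI, 42 could be measured, of which 25 were higher and 5 lower, against 15.5% and 10.7% of all genes, and the summed ratio was 1.66 (1.57 to 1.77).

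Kcnmb2, an inactivating subunit of the large-conductance channel, was 3.39-fold higher in the progenitors as a whole (2.73 to 4.20), with 136 of its 160 progenitor UMIs in the cells with Pitx1. These cells had 120.0 CPM and the pituitary gate 156.1 CPM, against 5.20 CPM in progenitors without other lineages and 12.7 CPM in neurons. Kcnk1, a weakly conducting 2-pore channel, behaved alike, at 32.6 CPM with Pitx1, 3.46 CPM without other lineages and 0 of 1121995 UMIs with Nkx2-1. Without cells of other lineages neither gene was lower in neurons beyond counting error: the ratio of neurons to progenitors was 1.75 for Kcnmb2 on 12 progenitor UMIs (0.97 to 3.47) and 1.15 for Kcnk1 on 8 (0.55 to 2.80). Kcna5, a delayed rectifier best known from heart muscle, was 2.93-fold higher in progenitors (1.96 to 4.36) and 2.61-fold without other lineages (1.57 to 4.25), but with the Nkx2-1 progenitors, on 4 UMIs, the log2 ratio of neurons to progenitors was 0.22.

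Kcne1l, an X-linked single-span auxiliary subunit also called Kcne5 (chrX:142304752-142306294), went the other way. It was 3.24-fold higher in all progenitors (2.52 to 4.17), 4.26-fold without other lineages (3.26 to 5.54) and 7.72-fold in those with Nkx2-1 (5.83 to 10.2). Its levels were 9.58 CPM in neurons, 31.1 CPM in all progenitors, 43.3 CPM without other lineages, 74.0 CPM with Nkx2-1 and 3.53 CPM with Pitx1. Kcnmb4, the neuronal-type subunit of the large-conductance channel, followed the same order, from 30.5 CPM in neurons through 56.7 and 70.6 CPM to 105.2 CPM with Nkx2-1, where it was 3.45-fold higher than in neurons (2.80 to 4.23). Its opposite-strand transcript Kcnmb4os2, which overlaps the start of Kcnmb4, moved with it, from 8.35 to 31.2 CPM, and whether counting used the strand is not given in the sources used here. Kcnk2 reached 190.7 CPM with Nkx2-1, 2.08-fold above neurons (1.79 to 2.398), and Kcnh7 38.3 CPM, 3.10-fold above (2.17 to 4.34).

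Some genes with too few UMIs for the measured set showed the same contrast and were picked out after their values were seen. Kcnj10, the inward rectifier of glia, had 24 UMIs in the progenitors and 9 in the neurons, and 22 of those 24 lay in the Nkx2-1 progenitors, at 19.6 CPM against 0.58 CPM (33.7-fold, 14.9 to 83.1). Scn7a, a sodium-sensing relative of the sodium channels found in glia, had 11 UMIs in progenitors, 8 of them with Nkx2-1, and 4 in all neurons. Scn9a, although higher in neurons, was also higher in these progenitors, with 43.7 CPM in the Nkx2-1 subset against 18.1 CPM in all progenitors, and the ratio of neurons to the subset was 1.42 (1.07 to 1.94). Scn3a was at 21.4 CPM in the subset and 20.3 CPM in all progenitors.

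**Figure D3:**
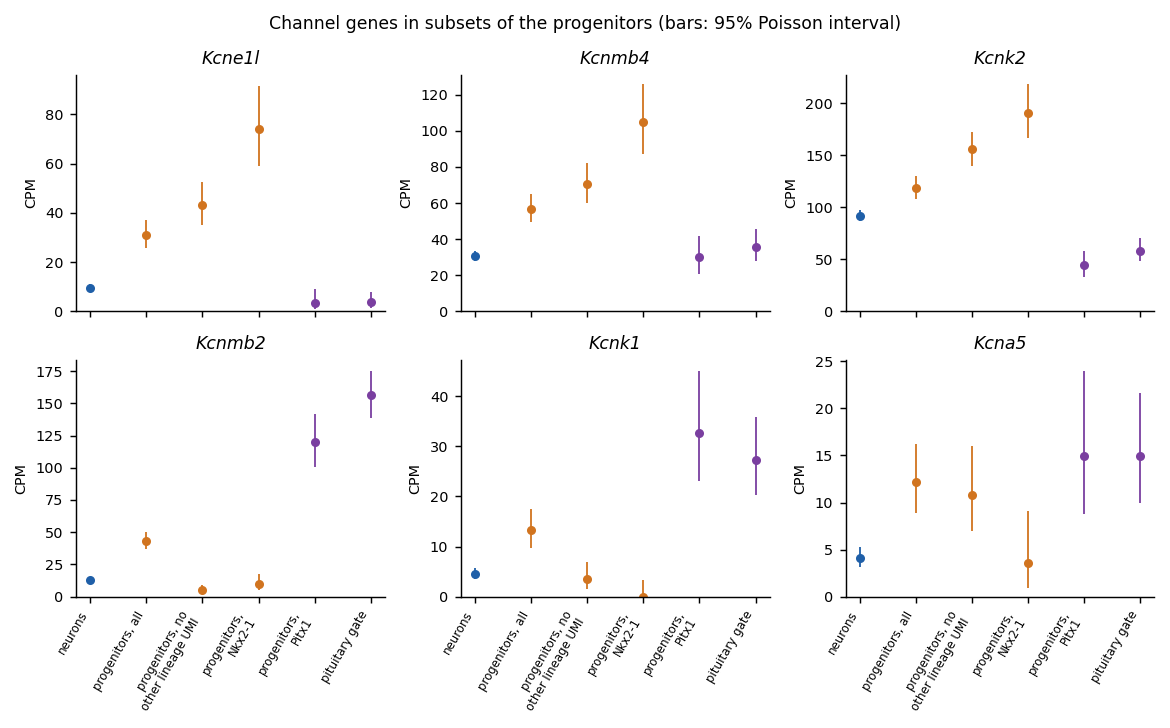
CPM (linear axes from 0, 95% Poisson intervals as bars) of Kcne1l, Kcnmb4, Kcnk2, Kcnmb2, Kcnk1 and Kcna5 in neurons (blue), in progenitors and their subsets (orange), and in progenitors with Pitx1 and the pituitary gate (purple). The top row climbs toward the Nkx2-1 progenitors (74.0, 105.2 and 190.7 CPM), while Kcnmb2 and Kcnk1 peak in the purple groups.

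A list of 26 genes that anchor, assist or silence these channels was read beside them. Of 20 measured, 10 were higher in neurons and 2 lower, beside 13.3% and 17.4% of all measured genes. Ank3, the ankyrin that gathers sodium and Kcnq channels at the axon initial segment, had 325.7 against 49.2 CPM (6.63, 5.71 to 7.72), and Ank2 had a ratio of 3.19. Lgi1, a secreted partner of Kcna channels and AMPA receptors, and Lrrc55, an auxiliary subunit of Kcnma1 channels, had ratios of 9.15 (3.85 to 28.5) and 9.11 (4.12 to 25.1). Dpp10 and Dpp6, which escort Kcnd channels, had 3.57 and 2.25, and Sptbn4 and Nfasc, of the initial segment scaffold, 4.46 and 2.03. Fam155a and Unc79, partners of the sodium leak channel Nalcn, had 4.59 and 4.43, while Nalcn itself had 1.56 (1.10 to 2.29). The 2 lower genes were Rest, the repressor of neuronal genes, at 4.08 CPM in neurons and 45.1 CPM in progenitors (11.1-fold, 8.23 to 15.03), and its corepressor Rcor1, at 7.90 and 28.6 CPM (3.63-fold, 2.77 to 4.74). Fgf11, Fgf12, Fgf13, Fgf14, Amigo1, Unc80, Nalcn and Cntnap2 were between.

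The second comparison asked which channel genes differ among neurons of different identity. Neurons that met exactly 1 of 6 gates were each set against all other neurons: Otp (633 cells, precursors of Agrp neurons among others), Dlx1 (261, GABA lineages), Pomc with at least 3 UMIs (172), Fezf1 or Nr5a1 (506, ventromedial hypothalamus), Robo3 (344) and Gbx2 (89). As above, a gene passed the filter on low counts more readily through its level in the larger group, here the other neurons. Another 209 neurons met several gates and 1792 met none. The last 2 gates were low in arcuate markers, against the label of the sample. Leaving out the genes that set the gates, Robo3 neurons had 3233 CPM of the habenula markers Pou4f1, Nhlh2 and Gng8 (936 CPM in all neurons) and Gbx2 neurons 6782 CPM of the thalamus markers Tcf7l2, Lef1 and Kitl (1082 CPM). Robo3 neurons were also above all neurons in these thalamus markers, at 2150 CPM. The 8 other arcuate markers summed to 47.3 CPM in Robo3 and 36.5 CPM in Gbx2 neurons, against 394 to 1668 CPM in the other 4 gates. The 394 CPM belonged to Fezf1/Nr5a1 neurons, where Nkx2-1, also a ventromedial marker, alone made up 331 CPM. None of the remaining arcuate markers in this sum exceeded 28.5 CPM there, so that gate was low in them too. The median depth ran from 2813 UMIs in Otp to 4164.5 in Pomc neurons. Summed over the 141 genes the gates were close, between 1446 CPM in Gbx2 and 1846 CPM in Robo3 neurons.

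Robo3 neurons had the most genes at least 2-fold from the other neurons, although the number that could be measured differed between gates, from 16 to 62. Of 47 measured genes, 5 were higher and 9 lower than in the other neurons, against 2.54% and 6.16% of all genes. Kcnma1 had 80.3 CPM there and 21.2 CPM in the other neurons (3.79, 3.02 to 4.72), and the next gate, Fezf1/Nr5a1, had 15.5 CPM. Cacnb3 had 416.0 against 161.1 CPM (2.58, 2.35 to 2.83), and was seen in 75.0% of Robo3 neurons. Kcnd3 and Kcnd2, A-type channels, were 2.12-fold and 2.04-fold higher.

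The same neurons lacked Kcnk12, with 0 UMIs in 344 cells against 222 in the other neurons, at least 7.34-fold lower when 3 UMIs are allowed. Cacna2d1 was 4.67-fold lower (3.26 to 6.94), Kcnq3 5.03-fold, Kcnip2 4.93-fold, Kcnc1 3.88-fold, Kcnk2 3.71-fold, Cacna1a 3.17-fold, Cacna1b 2.27-fold and Scn3b 2.004-fold. Without Cacnb3 the summed level of Robo3 neurons was 1430 CPM and lay below that of all neurons, at 1537 CPM. Genes too low for the measured set, picked out after their values were seen, were Kcng4, with 28 of its 68 neuronal UMIs here (20.1 against 2.85 CPM; 7.06-fold, 4.19 to 11.7), and Kcna2, with 35 of 102 (25.1 against 4.77 CPM; 5.27-fold, 3.40 to 8.04). The Kcnq3 and Kcnip2 values rest on 3 UMIs each.

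Neurons with Fezf1 or Nr5a1 had 2 higher and 10 lower genes of 62 measured, against 1.31% and 5% of all genes. Cacna2d1 was the leading gene, at 201.1 CPM against 74.3 CPM in the other neurons (2.71, 2.42 to 3.03), and was seen in 54.3% of these neurons. It was also at 134.3 CPM in Pomc neurons and only at 20.9 CPM in Dlx1 neurons. Kcnu1, a channel best known from sperm, had 20 UMIs here (8.63 against 4.26 CPM; 2.02, 1.15 to 3.43). On the lower side, Kcng4 had 0 UMIs (at least 3.999-fold lower), Kcnip4 was 6.06-fold lower (2.02 to 29.9) on 3 UMIs, Cacna1d 3.70-fold (1.54 to 11.6), Kcne1l 3.55-fold (1.68 to 9.001), Cacna1i 3.48-fold, Cacng3 3.35-fold and Kcnip2 2.80-fold. Cacna1g, Kcnd3 and Kcnab2 were 2.29-fold, 2.21-fold and 2.22-fold lower, the last with an interval that included 1 (0.90 to 7.08).

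Pomc neurons were set apart by Kcnk12, a 2-pore-domain gene (chr17:87745801-87797994) whose product passes little current alone. It had 62.4 CPM in Pomc neurons (52 UMIs) and 11.6 CPM in the other neurons, a ratio of 5.36 (3.85 to 7.35). The order of the gates was Pomc, then Fezf1/Nr5a1 at 24.2 CPM, Otp at 6.39, Dlx1 at 3.69, Gbx2 at 3.04 and Robo3 at 0, and the first was 2.58-fold above the second (1.73 to 3.83). In cells thinned to equal depth, 14.6% of Pomc, 5.98% of Fezf1/Nr5a1 and 2.71% of all neurons had a UMI, against 1.09% of mesenchymal cells. It was the 1 higher gene of 35 measured, against 0.991% of all genes. The 1 lower gene, against 3.79%, was Kcnma1, at 7.19 against 27.6 CPM (3.84-fold, 1.75 to 10.5). The other neurons include the Robo3 neurons, which had the highest Kcnma1 level of the gates. Each of the remaining gates also lay below 27.6 CPM, so a level under that value was not particular to Pomc neurons.

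The pituitary markers moved with this gate, at 327 CPM in Pomc neurons against 82.5 CPM in all neurons, with 1 of the 7 at 0, and 14.0% of the cells had a UMI of another lineage. Kcnk12 was at 1.60 CPM in the pituitary gate, and the log2 ratio of Pomc neurons to the other neurons was 2.49 without the cells of other lineages and 2.42 with them. Kcne1l, too low for the measured set and picked out after its value was seen, was at 28.8 CPM in Pomc neurons and 8.48 CPM in the other neurons (3.39, 2.09 to 5.28). All progenitors had 31.1 CPM, a mean lowered by the cells with Pitx1. The Pomc neurons lay below the progenitors without other lineages and those with Nkx2-1, whose levels are given above.

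Dlx1 neurons had 1 higher and 3 lower genes of 35 measured, against 0.779% and 4.07% of all genes. Scn9a was higher, at 123.2 against 58.8 CPM (2.09, 1.68 to 2.58), and lay 1.90-fold above the next gate, Pomc (1.35 to 2.70). Cacna2d1 was 4.65-fold lower (2.89 to 8.004), Kcnk12 4.05-fold on 3 UMIs (1.37 to 19.8) and Kcnma1 2.47-fold (1.29 to 5.44). For Kcnma1, the other neurons again include the Robo3 neurons, where its level was highest.

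Otp neurons had 1 higher and 6 lower genes of 59 measured, against 1.04% and 4.32% of all genes. The higher gene was Kcnip2, at 19.7 against 8.35 CPM (2.35, 1.60 to 3.41). Kcnn2, the small-conductance calcium-activated channel, was 4.36-fold lower on 4 UMIs (1.66 to 16.3), and Kcnk10, a lipid-sensitive leak channel, 3.91-fold on 4 UMIs (1.48 to 14.6). Kcna2, Cacna2d1, Kcnk12 and Kcnd2 were 2.94-fold, 2.73-fold, 2.44-fold and 2.004-fold lower.

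Gbx2 neurons, the smallest gate, had 0 higher and 4 lower genes of 16 measured, against 1.97% and 6.55% of all genes. With 89 cells, a gene passed the filter mainly through its level in the other neurons, which favours lower genes, so nothing is read from these counts. Scn9a had 12.2 against 63.3 CPM (5.20-fold lower; 2.02 to 19.1) and Kcnc1 12.2 against 42.2 CPM (3.46-fold, 1.35 to 12.8), each on 4 UMIs. Kcnmb4 was 5.09-fold lower on 2 UMIs (1.40 to 42.2) and Kcnip1 2.104-fold on 8 (1.06 to 4.89). Genes too low for the measured set, picked out after their values were seen, were higher: Kcnh7 on 13 UMIs (39.6 against 11.8 CPM, 3.36-fold, 1.76 to 5.90), Kcnq3 on 10 (3.17-fold, 1.49 to 6.01), Cacng3 on 6 (3.73-fold, 1.33 to 8.52) and Kcnn2 on 7 (2.88-fold, 1.13 to 6.13).

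Scn3a differed by less than 2-fold across gates. It ranged from 85.1 CPM in Pomc to 152.7 CPM in Dlx1 neurons, where it was 1.01-fold the next gate (0.81 to 1.24). Cacna2d1 had a wider range: its order ran from Fezf1/Nr5a1 at 201.1 CPM through Pomc, Gbx2 and Otp to Robo3 at 21.5 and Dlx1 at 20.9 CPM.

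**Figure D4:**
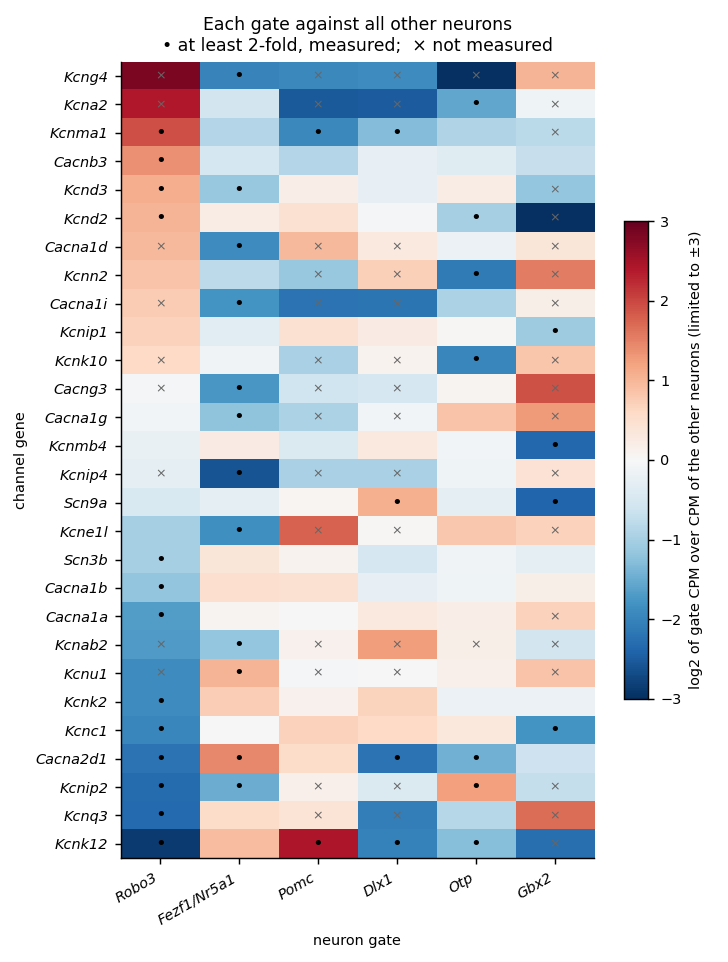
Log2 ratio of each gate to all other neurons for 28 of the 29 channel genes at least 2-fold higher or lower in any gate, ordered by the Robo3 column. Red is higher and blue lower (colours limited at 3), dots mark the 42 measured values of at least 2-fold, and crosses mark the 58 gene and gate pairs not measured. Robo3 and Fezf1/Nr5a1 hold most dots, and Kcnk12 runs from the reddest Pomc cell to the bluest Robo3 cell.

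Stmn2 itself differs among neurons, and the neurons were cut into terciles by Stmn2 UMIs per 10000 UMIs, which is a range and not a cell type. The terciles held 1336, 1335 and 1335 cells, with the borders at 16.9 and 28.3 Stmn2 UMIs per 10000. The summed level of the channel genes was 1542 CPM in the lowest, 1797 CPM in the middle and 1800 CPM in the highest tercile. Of 76 measured genes, 9 were higher and 3 lower in the highest than in the lowest tercile, against 2.31% and 8.29% of all genes. Among the 9 is a gene not reported here by name, whose interval included equal levels. The median log2 ratio was 0.03 for the channel genes and −0.09 for all genes.

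Kcnk12 led, at 5.99, 9.94 and 24.8 CPM (4.14, 2.75 to 6.44), followed by its relative Kcnk13 (3.35, 1.23 to 11.4) and Kcnq3, at 5.35, 10.1 and 13.7 CPM (2.56, 1.61 to 4.18). Kcng4, Cacna1i, Kcnj3, Kcnip4 and Cacna2d1 had ratios between 2.14 and 2.54. The lower genes were Kcna5 (3.76-fold, 1.85 to 8.24), Kcnab1 (3.13-fold, 1.56 to 6.71) and Kcne1l (2.12-fold, 1.43 to 3.18).

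The makeup of the terciles moved with these values. Neurons with Otp made up 28.3% of the lowest and 9.74% of the highest tercile, those with Fezf1 or Nr5a1 6.06% and 27.5%, and those with Pomc, the gate with the highest Kcnk12 level, 5.16% and 9.96%. Median depth was 3063.5 UMIs in the lowest and 3987 in the highest tercile, and 19.2% and 37.2% of the cells had a Sox2 UMI. The neurons that met no gate are themselves a mixture, with 1194 CPM of the 3 habenula, 1344 CPM of the 3 thalamus and 296 CPM of the 8 arcuate markers that set no gate. In them, Kcnk12 had 4.10, 6.87 and 14.6 CPM in the terciles (8, 15 and 37 UMIs), Kcnq3 6.15, 10.1 and 13.4 CPM, and Kcne1l 12.8, 6.41 and 3.94 CPM. Kcnk12 had 19.9, 68.9 and 78.9 CPM in the terciles of the Pomc neurons and 3.88, 20.04 and 29.1 CPM in those of the Fezf1/Nr5a1 neurons. It did not rise in Otp neurons, at 7.75, 4.598 and 5.72 CPM, or in Dlx1 neurons, at 5.72, 2.84 and 0 CPM, on 8 UMIs or fewer in each tercile. Cacna2d1 had 64.0, 88.0 and 119.6 CPM in the terciles of the neurons with no gate, but 213.2, 165.8 and 211.9 CPM in those of the Fezf1/Nr5a1 neurons. Kcna5 had 15, 5 and 1 UMIs in the terciles of the Otp neurons and 5, 5 and 4 UMIs in those of the neurons with no gate (2.56, 2.29 and 1.57 CPM).

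**Figure D5:**
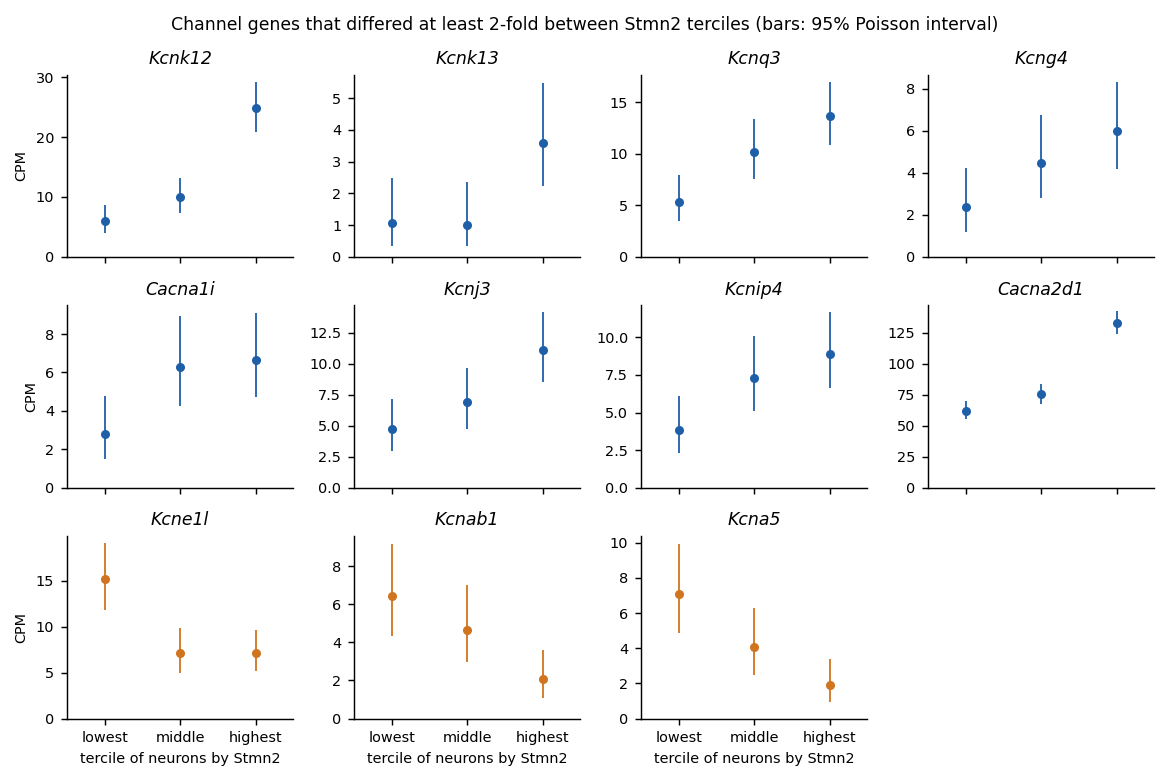
CPM (linear axes from 0, 95% Poisson intervals as bars) of 11 of the 12 channel genes that differed at least 2-fold between the lowest and highest tercile of neurons by Stmn2. The 8 blue genes were higher in the highest tercile, most of all Kcnk12 at 24.8 against 5.99 CPM, and the 3 orange genes were lower.

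Cells with neither Sox2 nor neuronal Stmn2 were read beside these groups. The vascular gate (63 cells with Cldn5 or at least 2 Rgs5 UMIs) summed to 750 CPM of channel genes, the mesenchymal gate (94 cells with at least 3 Col1a2 UMIs) to 553 CPM and the pituitary gate (412 cells with Pitx1 or at least 3 Cga UMIs) to 1140 CPM, while 23 macrophage cells had 23 UMIs in all. Of the vascular sum, Kcnj8 alone made up 467.6 CPM, and without it the sum was 283 CPM. Neurons held so many more UMIs than these gates that a channel gene passed the filter on low counts mainly through its level in neurons, so no count of higher or lower genes is given for the vascular, mesenchymal and pituitary gates.

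Kcnj8, the pore subunit of the vascular ATP-sensitive potassium channel and itself a listed marker of mural cells (chr6:142564837-142571614), was too low overall for the measured set. It had 134 of its 190 UMIs in the vascular gate, at 467.6 CPM (391.7 to 553.8) against 1.88 CPM in neurons, a 249-fold difference (166 to 386), and 60.3% of vascular cells had a UMI against 0.35% of neurons. Kcne3, an auxiliary subunit of epithelia and vessels, had 13 UMIs there against 6 in all neurons (117-fold, 41.4 to 375). Both were picked out after their values were seen.

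In the pituitary gate, for which the same holds, several measured genes were higher than in neurons. Kcnmb2 led with 156.1 against 12.7 CPM (12.2, 10.2 to 14.7) and was seen in 43.2% of these cells, followed by Kcnk1 (6.11, 4.17 to 8.90), Kcnk3, an acid-sensitive leak channel (4.17, 3.002 to 5.73), and Kcnh8 (3.22). Genes too low for the measured set, picked out after their values were seen, were Kcnj15, with 21 UMIs against 5 in all neurons (34.7, 12.7 to 118), and Cacna2d4 (26.6, 12.3 to 63.9).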

How the data were processed

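The authors deposited a table of UMI counts, genes by cell barcodes, from Cell Ranger 2.1.1 with STAR and mm10, without normalization. A UMI counts 1 captured molecule from the 3′ end of a transcript, so levels of different genes were not ranked against each other. The 4 runs share 1 table in which cells carry no run or embryo label, and were treated as 1 sample. Cells were kept by the limits in the study's methods: 200 to 4500 genes, at most 10% mitochondrial UMIs and at most 10 UMIs of Hba-a1, which removed 114 of 6465 barcodes. These limits left more cells than the methods report, and all of them were used. The depositors' 4 samples all carry the same label, arcuate nucleus neurons, so cell groups were set by marker UMIs.

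UMIs were summed over the cells of a group and divided by the group's total (CPM). Levels have 95% Poisson intervals, shares exact Clopper-Pearson intervals in the tables, and ratios conditional exact binomial intervals, all for counting error only. A group with 0 UMIs was given 3 UMIs in a ratio. The ratio script was tested on simulated counts with known folds. No doublet caller was run. The 5% of cells with the most UMIs were left out as an alternative. Shares of cells were also computed after thinning each cell to 2167 UMIs, which left out 280 of 4006 neurons and 130 of 847 progenitors.

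Named were, in each functional class, up to 3 genes with the most UMIs and at least 100, the 8 highest and 8 lowest ratios of neurons to progenitors, for each gate up to 4 higher and 2 lower genes, and up to 3 higher genes per reference gate. Some genes that this rule names or that the counts include are not reported here by name and are left out of the plots of single genes, as are measured genes not named in the text. Other genes are given to complete a count, or are said to be chosen after their values were seen. The channel genes, lists and gates were chosen with earlier results of these data known. Gene positions are from GENCODE vM21 (GRCm38, the sequence of mm10). The scripts ran under Python 3.11.15 with scipy 1.17.1 for intervals, pandas 2.3.3, numpy 2.4.6 and, for plots, matplotlib 3.10.9.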

Additional observations from a re-analysis of the deposited data

How the results depend on the processing

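No paired analysis was possible because the 4 samples are runs of 1 library with no replicate. The summed ratio of neurons to progenitors was 2.06 with at most 5% mitochondrial UMIs, 1.66 with Nkx2-1 progenitors, 1.81 with totals without mitochondrial, ribosomal protein and haemoglobin genes, 1.85 in thinned cells and 1.86 as a mean over cells. The count of higher genes was 25 with Nkx2-1 progenitors and 27 in thinned cells, where fewer genes could be measured, and between 38 and 52 under every other alternative run. The count of lower genes was 7 without a filter on cells, 7 with at least 4 or 0 Stmn2 UMIs, 8 as a mean over cells and 15 without a filter on low counts. Among the gates, the count of higher genes was 2 for Otp with at most 5% mitochondrial UMIs, 3 for Otp and 3 for Pomc when a neuron counted in every gate it met, and 2 for Pomc as a mean over cells. Without a filter on low counts it was 9 for Otp, 16 for Dlx1, 20 for Pomc, 7 for Fezf1/Nr5a1, 13 for Robo3 and 13 for Gbx2. For these gate counts, and for most counts against progenitors before them, no share of all genes is given. They show only how the counts depend on the settings, and nothing is read from them about the channel genes. The log2 ratio reversed for Kcnmb2 (0.81) and Kcnk1 (0.21) without cells of other lineages, and for Kcnmb2 (0.38), Kcnk1 (0.74) and Kcna5 (0.22) with Nkx2-1 progenitors, where Kcnk1 had 0 progenitor UMIs and its value uses the floor of 3. Apart from that bound, these intervals include equal levels. The cause was not tested. Of 639 recomputed ratios of the named genes, 569 moved by less than their interval, 65 by more without a reversal and 5 reversed. Centring on the median ratio of all genes, chosen after the data were seen, left the counts at 43 and 4. The total UMIs of a group limit its values: among the neuron gates the limit is widest for the 89 Gbx2 neurons, where 16 genes could be measured and 3 UMIs equal 9.13 CPM, and 3 UMIs equal 10.5 CPM in the vascular and 38.7 CPM in the macrophage gate.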
